A study of Mus musculus with 6 samples.

Results

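Pax6 and its paired-box paralogues Pax2, Pax3, Pax7, Pax8 and Pax9 were followed in the prospective lens of mouse embryos with and without functional Pax6. All probes that the platform annotation gives to 1 of these 6 genes were taken. There were 10 such probes among 46632 on the array, for 5 of the 6 genes: 3 for Pax6, 3 for Pax8, 2 for Pax2 and 1 each for Pax7 and Pax9. Pax3 was not analysed here. Total RNA came from single embryos at embryonic day E10.25 on a mixed FVB and 129 background, with 3 wild-type embryos, whose lens placode was cut out by laser microdissection, and 3 Pax6-/- embryos, whose surface ectoderm was taken. Both prospective lens areas of an embryo went onto 1 Illumina bead array. The labels do not say which part of Pax6 the null allele alters, and the tissue is bulk, so fewer cells of a type and less RNA per cell cannot be told apart.

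Paired-box (Pax) proteins are transcription factors that bind DNA through the paired domain, and several of them, Pax6 included, carry a homeodomain as well. Pax6 is needed in the head surface ectoderm for the lens to form and is also expressed in the optic cup. Pax2 is known for the optic stalk and otic vesicle, Pax8 for the otic region, thyroid and kidney, Pax7 for neural crest and muscle precursors, and Pax9 for pharyngeal pouches, teeth and vertebrae. The targeted gene was read on every array, but with the altered part of Pax6 not stated and the probe sequences not used, these readings cannot check the genotype labels. Reading its paralogues shows which other family members were detectable in this tissue.

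Pax6 lies on chromosome 2, and RefSeq lists 8 transcripts and, in the table of promoters used, 2 start sites for it. The 250 bases before each start site are shown because Pax6 was the 1 family member with signal on every array, in both genotypes. Capitals mark a CCAAT box (CCAAT) and a cyclic AMP response element (TGACGTCA), searched on both strands together with a TATA box (TATAAA). The motifs marked do not overlap. Both sequences are from RefSeq, build GRCm38.p6, plus strand.
Pax6 upstream start, chr2:105668646-105668895: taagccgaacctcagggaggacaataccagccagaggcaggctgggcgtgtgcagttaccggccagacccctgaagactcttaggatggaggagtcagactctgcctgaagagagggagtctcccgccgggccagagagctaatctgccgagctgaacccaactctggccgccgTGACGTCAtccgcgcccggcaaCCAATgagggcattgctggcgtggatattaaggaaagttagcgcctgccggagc
Pax6 downstream start, chr2:105682213-105682462: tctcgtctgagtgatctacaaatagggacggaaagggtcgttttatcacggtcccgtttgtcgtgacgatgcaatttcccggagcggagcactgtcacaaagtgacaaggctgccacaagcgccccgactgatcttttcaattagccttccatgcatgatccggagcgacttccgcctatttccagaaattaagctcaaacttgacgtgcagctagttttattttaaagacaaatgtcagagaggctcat
The upstream window holds 1 CCAAT box, 49 bases before the start, and 1 cyclic AMP response element, 68 bases before it. Of 32851 mouse promoter windows of the same length, 33.9% hold a CCAAT box and 1.55% a cyclic AMP response element. Neither Pax6 window holds the TATA box (12.4% of all windows), and the downstream window holds none of the 3. Its GC content is 47.6%, against 60.8% in the upstream window. Of the 6 members 5 had at least 1 window. Pax8 is the 1 other member with a match, a CCAAT box 52 bases before its start. The probe sequences were not used here, so which of the starts the measured transcripts came from is unknown.

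Pax6 transcript was well above background on all 6 arrays and read lower in the Pax6-/- tissue on each of its 3 probes. The deposited values are mean bead intensities on a linear scale. A probe counts as above background where its deposited detection p, which sets it against the negative-control beads of the array, is under 0.05. Probe ILMN_2447200, annotated to a cDNA clone, read 1108, 881 and 611 in wild-type arrays 1, 2 and 3, and 468, 456 and 339 in Pax6-/- arrays 1, 2 and 3. The wild-type arrays were all higher, although they differed among themselves by up to 1.81-fold. Probe ILMN_2504978, annotated to the RefSeq messenger RNA, read 1557, 1272 and 1255 in the wild type and 566, 496 and 761 in Pax6-/-. The genotypes again did not overlap, and Pax6-/- array 3 was the nearest to the wild type. Probe ILMN_2612187, annotated to the same messenger RNA, read 1964, 1329 and 1488 in the wild type and 822, 1018 and 1022 in Pax6-/-. The Pax6-/- mean was 59.9% of the wild-type mean here, against 48.6% for ILMN_2447200 and 44.6% for ILMN_2504978. Over these 18 readings the bead standard error was 2.39% to 4.53% of the signal, with 18 to 54 beads behind each. The spread between arrays was larger than the bead error. As the deposited values are not normalised, that spread includes differences in brightness between whole arrays. The detection p did not exceed 0.0019 on any of the 18 readings.

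**Figure D1:**
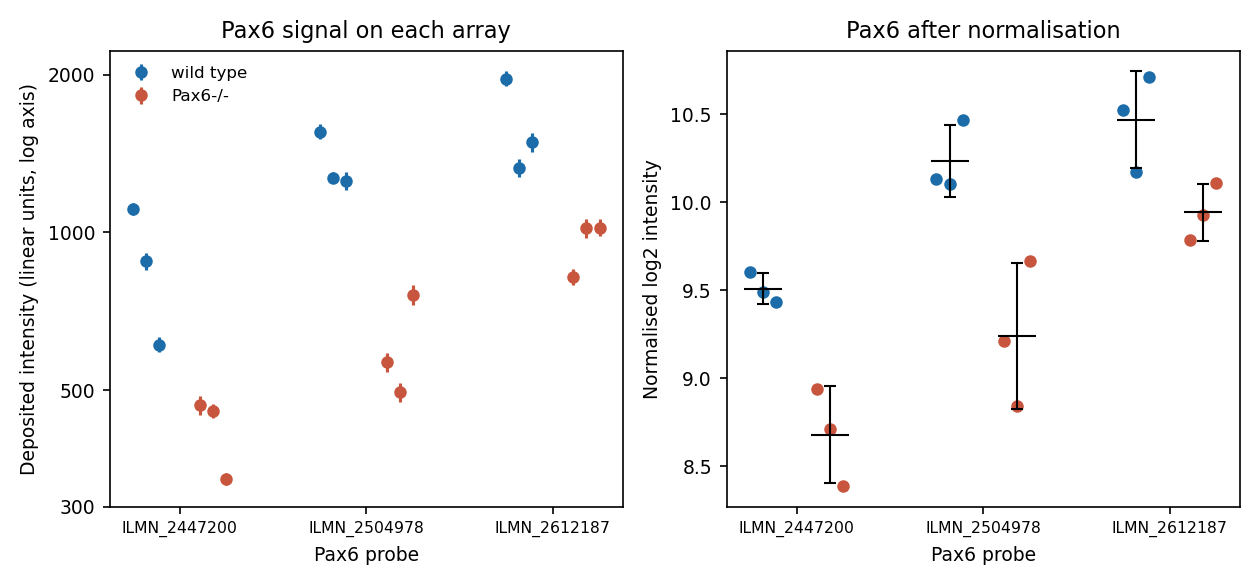
Left, deposited intensity of the 3 Pax6 probes on each array (log axis), with bars for the standard error of the bead mean. Right, the same readings as normalised log2 intensities, with the mean and SD over 3 arrays. Within each genotype points run from replicate 1 to replicate 3. The genotypes do not overlap on any probe, with Pax6-/- the lower. On the normalised scale the margin is smallest on ILMN_2612187.

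After normalisation the Pax6-/- tissue had a level between 50.1% and 69.5% of the wild type, depending on the probe, and none of the 3 differences passed the test over all probes. Values here are log2 intensities after background correction and quantile normalisation, as mean ± SD over 3 arrays, and a change subtracts the wild-type mean from the Pax6-/- mean, with its standard error (SE) in the limma fit after ±. ILMN_2447200 was at 9.60, 9.49 and 9.43 in the wild type and 8.94, 8.71 and 8.39 in Pax6-/-. Its change was -0.83 ± 0.25, which leaves 56.3% of the wild-type level with a 95% confidence interval of 36.9% to 85.8% (limma adjusted p = 0.376). ILMN_2504978 was at 10.13, 10.10 and 10.47 in the wild type and 9.21, 8.84 and 9.67 in Pax6-/-. Its change was -0.996 ± 0.301, which leaves 50.1% with an interval of 30.1% to 83.5% (limma adjusted p = 0.380). ILMN_2612187 was at 10.52, 10.17 and 10.71 in the wild type and 9.79, 9.93 and 10.11 in Pax6-/-. Its change was -0.53 ± 0.26, and 69.5% was left, with an interval of 45.0% to 107% that includes no change (limma adjusted p = 0.638).

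Of the 3 Pax6 probes, 0 passed an adjusted p of 0.05, as did 0.0225% of all 17751 probes tested (4 probes, all lower in Pax6-/-). At an unadjusted limma p of 0.05, 2 of the 3 were lower (unadjusted limma p of 0.0157 for ILMN_2447200 and 0.0162 for ILMN_2504978), against 5.06% of all probes that were lower at that p. The third had an unadjusted limma p of 0.0861. The genotypes did not overlap, with Pax6-/- lower, on 3 of 3 probes and on 7.11% of all probes. The gap between the lowest wild-type and the highest Pax6-/- array was 0.50, 0.44 and 0.06 log2 units for the 3 probes in the order above. The probes share RNA from the same embryos and are not independent of each other. An exact two-sided permutation test of 3 arrays against 3 cannot give a p below 0.1, and each of the 3 probes had that p.

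Averaged over its 3 probes, Pax6 was at 10.09, 9.92 and 10.20 in the wild-type arrays and at 9.31, 9.16 and 9.39 in the Pax6-/- arrays. The means were 10.07 ± 0.14 (SD, n = 3) and 9.29 ± 0.12 (SD, n = 3). The difference of -0.78 leaves 58.1% of the wild-type level. It exceeded the spread of either genotype and was given no test. The median change over all probes tested was 0.05.

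The changes of the 3 Pax6 probes were compared with each other in 3 pairs, by an exact test of 3 arrays against 3 in which no pair could reach a p of 0.05, so a difference between probes is neither shown nor excluded by it. Of the pairs, ILMN_2504978 against ILMN_2612187 had the largest difference in change: the former went down by a further 0.47 ± 0.22 log2 units (SE, n = 3 arrays per genotype), without overlap between the genotypes. Its exact two-sided permutation p was 0.1, the smallest possible, or 0.3 after Benjamini-Hochberg adjustment over the 3 pairs. ILMN_2447200 differed in change from ILMN_2504978 by 0.17 ± 0.39 and from ILMN_2612187 by -0.30 ± 0.31, with overlapping genotypes (exact permutation p = 0.6 and 0.5, both 0.6 adjusted). Around the genotype means, ILMN_2504978 and ILMN_2612187 varied together over the 6 arrays (r = 0.59). ILMN_2447200 varied against them (r = -0.64 and -0.52). These correlations rest on 6 arrays and are given as a description.

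The direction was the same for every Pax6 probe under each of the other processing settings and with each array left out. Scaling the arrays to a common median gave the largest falls, with values of -1.17, -1.31 and -0.82 for ILMN_2447200, ILMN_2504978 and ILMN_2612187. That scaling moved the median change over all probes tested by -0.27. Relative to the median change of the same setting, the mean over the Pax6 probes was -0.88, against -0.84 with quantile normalisation. No setting brought a Pax6 probe past the threshold, with limma adjusted p between 0.182 and 0.873 over all settings with 6 arrays.

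**Figure D2:**
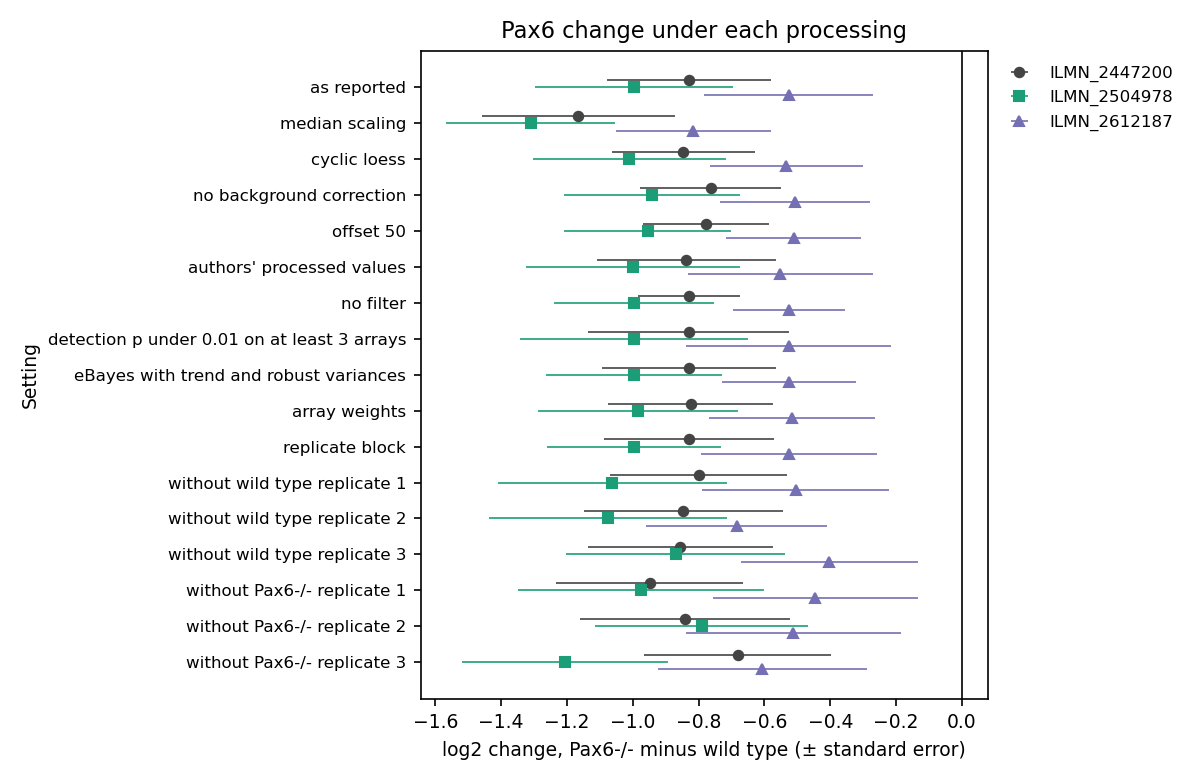
Change of each Pax6 probe (log2, Pax6-/- minus wild type, bars are the SE of the limma fit) as reported and under each other setting, including each array left out in turn. All points lie below 0, and median scaling gives the lowest value for ILMN_2504978, -1.31.

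The paralogues were mostly at background in both genotypes. None of their 7 probes was above background on at least 3 arrays, so none entered the test, and they are described by their deposited intensity and detection p. Of their 42 readings (7 probes on 6 arrays), 4 were above background, or 9.52%. Missing this filter was common: 28881 of all 46632 probes on the array did. Over those 28881 probes, 6.41% of readings were above background. At least 1 such reading occurred for 3 of the 7 paralogue probes and for 28.0% of all probes that missed the filter.

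Pax2 was read by 2 probes that did not go together. ILMN_1227108 read 54.5, 52.1 and 47.8 in the wild type and 52.4, 56.8 and 94.6 in Pax6-/- arrays 1, 2 and 3. Pax6-/- array 3 was the single one above background (detection p of 0.0156). ILMN_1242530 read 57.3, 65.1 and 84.8 in the wild type and 108.4, 56.7 and 57.5 in Pax6-/-. Here wild-type array 3 (detection p of 0.0106) and Pax6-/- array 1 (detection p of 0.0069) were above background. No array was above background on both Pax2 probes.

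Pax9 read 60.8, 64.8 and 47.1 in the wild type and 103.5, 56.3 and 50.3 in Pax6-/-. Pax6-/- array 1 alone was above background (detection p of 0.0081), the same array as for 1 of the Pax2 probes. Pax7 was not above background on any array, with wild-type readings of 42.9 to 53.6 and Pax6-/- readings of 48.5 to 58.7. Pax8 was not above background on any array with any of its 3 probes. Its brightest probe, ILMN_2616389, read 69.9, 66.7 and 54.4 in the wild type and 63.7, 60.7 and 57.5 in Pax6-/-, with detection p from 0.079 to 0.248. The bead standard error was 3.12% to 7.03% of the signal over the paralogue probes. A reading at background means not detectable on this array, not absent. With the filter removed, 0 of the 7 paralogue probes passed in limma, and 0 had an unadjusted p under 0.05.

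**Figure D3:**
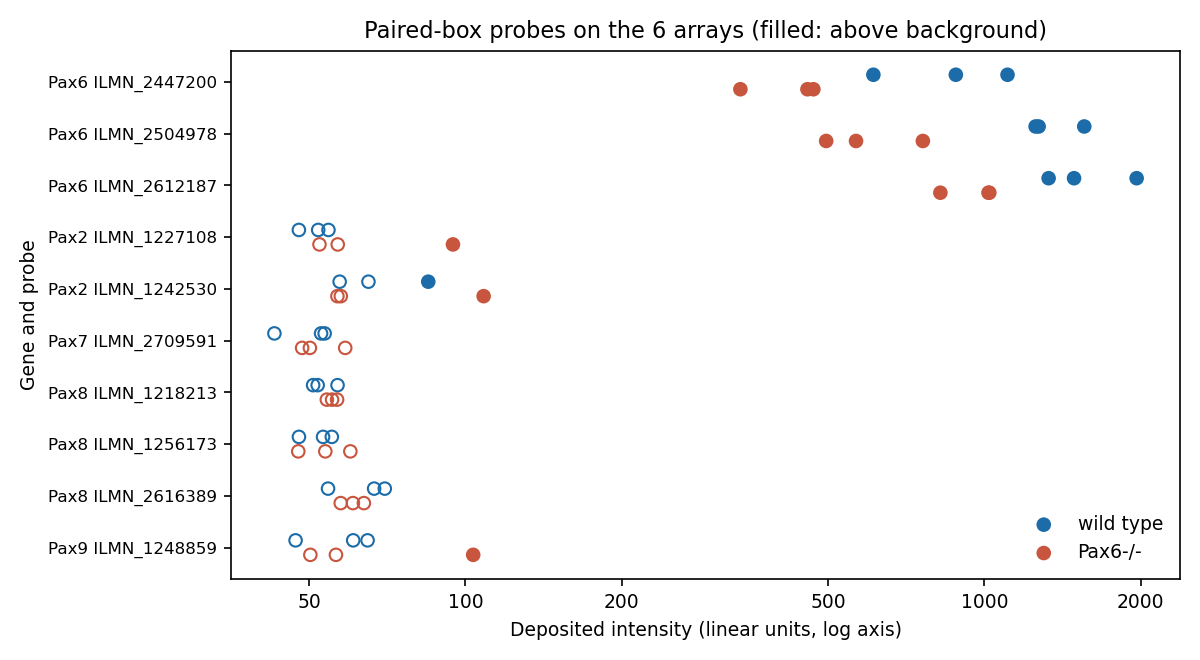
Deposited intensity (log axis) of all 10 paired-box probes on the 3 wild-type and 3 Pax6-/- arrays, with filled points above background and open points not. All 18 Pax6 readings are filled, and 4 of the 42 readings of the paralogues are.

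Tissues in which the members are also known to be expressed were checked by marker lists, as the summed normalised linear intensity of all listed genes on the array. Genes not above background add their background level to such a sum. Optic cup and retina markers, 11 genes, had wild-type sums of 651 to 912 and Pax6-/- sums of 1261 to 3201, with 5 or 6 genes above background in the wild type and 7 or 8 in Pax6-/-. Rax, an eye-field homeobox gene, was at 5.03 ± 0.21 (SD, n = 3) in the wild type, above background on 1 array. In Pax6-/- it was at 6.89 ± 0.96 (SD, n = 3), above background on all 3 arrays (limma adjusted p = 0.325). Of the 7 optic cup genes tested, none passed an adjusted p of 0.05, and 6 changes were positive and 1 negative. At an unadjusted p of 0.05, 4 were higher and 0 lower, where 4.42% and 4.93% of the 9195 named genes tested were. Zic1, the brightest of the 7 in Pax6-/-, went from 6.98 ± 1.23 to 9.50 ± 0.72 (SD, n = 3 each). Hes5, Tyr and Zic2 were not above background on any array. The part of optic cup RNA in the remaining Pax6 signal was not tested. Optic stalk markers, 5 genes, had wild-type sums of 149.7 to 163 and Pax6-/- sums of 196 to 509, with Pax6-/- array 3 the highest. That was the array with the Pax2 reading on ILMN_1227108. The arrays with a Pax2 reading on ILMN_1242530 did not follow this order: Pax6-/- array 1 had the second highest sum, 326, and wild-type array 3 the lowest, 149.7, with none of the 5 genes above background. Of these 5, Vax2, Fgf8, Nkx2-2 and Shh were not above background on any array, and their background levels are part of each sum. Ntn1, a guidance cue gene and the 1 gene tested, went from 5.07 ± 0.20 to 7.52 ± 1.18 (SD, n = 3 each). It was above background on 1 wild-type and 3 Pax6-/- arrays (limma adjusted p = 0.284). Pharyngeal markers, 5 genes, summed to 171 to 239 and 204 to 302, with overlapping genotypes. Pax6-/- array 1, the one with the Pax9 reading, had the highest sum. It had 1 of the 5 genes above background, against 3 on wild-type array 3. Tbx1 and Hand2 of that list were not above background on any array. Otic markers, 7 genes, overlapped at 503 to 965 and 861 to 1076, with Sox10 and Hmx3 not above background on any array. Neural crest and mesenchyme markers, 14 genes, overlapped at 2380 to 3110 and 1927 to 3052, and Sox10, Foxd3 and Foxc1 were not above background on any array. Among the 10 genes tested here, 3 were higher and 1 was lower at an unadjusted p of 0.05, where 4.42% and 4.93% of named genes were. None passed an adjusted p of 0.05. The sum is weighted by the lower one, the receptor gene Pdgfra, which had -3.82 ± 0.70 (limma adjusted p = 0.165) on its brightest probe and 0.11 ± 0.23 on the other. The higher ones were Twist2, which went from 0 to 3 arrays above background (at least 2.89-fold), Prrx2, a homeobox gene (2.09 ± 0.56), and Col5a1, which encodes a collagen chain (1.46 ± 0.33). Twist2 entered the test through its 3 Pax6-/- arrays alone, so its p sets them against background readings. Red blood cell markers, 8 genes, summed to 523 to 3227 and 3857 to 5765, with Epor not above background on any array, and endothelial markers, 10 genes, to 462 to 520 and 935 to 995, with Tie1 and Erg not above it. The part of these tissues in the Pax values was not tested. The labelled tissue was checked with 10 lens placode markers, with wild-type sums of 6563 to 7914 and Pax6-/- sums of 880 to 1267. All of these markers but Crybb3 also stand in the list of genes downstream of Pax6 below, so this check and that list are not independent. Of 9 tested, 3 were lower at an adjusted p of 0.05 (0.0435% of named genes passed): Maf, Prox1 and Crybb3. Crybb3, above background on 1 Pax6-/- array, had -4.39 ± 0.31 (limma adjusted p = 0.034) and -0.35 ± 0.74 on its other probe. The 13 surface ectoderm markers summed to 5646 to 6688 and 6470 to 8331, with 11 and 12 of the 13 above background on every array of the genotypes and Krt14 on none. Of 12 tested, 6 changes were negative, 6 positive, and none passed an adjusted p of 0.05. At an unadjusted p of 0.05, 2 of them were higher and 1 was lower, where 4.42% and 4.93% of named genes were. Tfap2b, the brightest in Pax6-/-, had 1.62 ± 0.25 (limma adjusted p = 0.124). Grhl3 went from 0 to 3 arrays above background (at least 3.07-fold) and entered the test through its Pax6-/- arrays alone. The lower one, Epcam, had -0.80 ± 0.22 (limma adjusted p = 0.331).

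Maf and Prox1 fell in the Pax6-/- tissue, among the genes known to lie downstream of Pax6 in the lens. Of 23 genes listed, 22 were on the array and 17 were tested, each on its brightest probe. At an adjusted p of 0.05, 2 of the 17 fell and 0 rose, against 0.0435% of 9195 named genes that passed in either direction. At an unadjusted p of 0.05, 10 were lower and 1 was higher, where 4.93% of named genes were lower and 4.42% higher. The median change was -1.46, against 0.06 over all named genes. Maf, a bZIP factor that drives crystallin genes, read at background on the 3 Pax6-/- arrays, which makes it at least 43.7-fold lower (limma adjusted p = 0.0033). Such a bound sets the wild-type mean against the lowest detected signal of each array. Maf entered the test through its 3 wild-type arrays alone, so its p sets them against background readings. Pitx3, among the 10 lower genes, entered in the same way. Prox1, a homeobox factor of fibre cell differentiation, fell by 5.51 ± 0.33 (limma adjusted p = 0.027). It was above background on 1 Pax6-/- array, and the size of the fall rests on background readings on the other two. Cdh2, encoding N-cadherin, had a change of -3.07 ± 0.41 (limma adjusted p = 0.0995, not past the threshold), and its other 2 probes had -2.71 and -1.07. The list comes from earlier lens studies and from earlier results of these data, so its direction is not independent evidence. Maf and Prox1 kept their size but not their call when an array was left out. Prox1 then had a fitted change of -5.78 to -5.31 and Maf, without a Pax6-/- array, of -5.80 to -5.78. The adjusted p of Prox1 was 0.158, 0.072 and 0.164 (wild type 1, 2 and 3) and 0.150, 0.219 and 0.203 (Pax6-/- 1, 2 and 3) without that array, and that of Maf was 0.068, 0.064 and 0.064 without Pax6-/- array 1, 2 or 3. Maf was not tested without a wild-type array, because it was then above background on fewer than 3 arrays.

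Genes that act upstream of Pax6 in the head ectoderm were mixed in direction. Of 15 listed, 12 were on the array and 11 tested. None passed an adjusted p of 0.05, while 2 were lower and 5 higher at an unadjusted p of 0.05, where 4.93% and 4.42% of named genes were, with a median of -0.11. The 2 lower genes, Sox2 and Six3, stand in the downstream list as well. Of the 5 higher genes, Meis1 (1.35 ± 0.37) and Fgfr2 (0.97 ± 0.38) had negative values on all 3 of their other tested probes, at -1.16 to -0.24 and -0.71 to -0.47, so their direction is not settled. Sox2, a SoxB1 factor that binds enhancers together with Pax6, had -2.15 ± 0.40 (limma adjusted p = 0.172), and -0.40 ± 0.55 on a dimmer probe. Bmp4, a secreted ligand needed for lens induction, went from 5.85 ± 0.79 (SD, n = 3) with 2 arrays above background to 9.11 ± 1.14 (SD, n = 3) with 3, and its change of 3.27 ± 0.69 did not pass (limma adjusted p = 0.212). Otx2, a homeobox factor of the anterior head that also stands among the optic cup markers, had 2.11 ± 0.57 (limma adjusted p = 0.325).

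None of the cofactors of Pax proteins passed. The list held 21 genes, among them the Groucho-type corepressors of the Tle family, the histone methyltransferase adaptor Paxip1 and kinases that modify Pax6. Of these, 17 were on the array and 15 were tested. At an adjusted p of 0.05 there were 0 calls. At an unadjusted p of 0.05, 2 were lower and 0 higher, where 4.93% and 4.42% of named genes were, and the median was 0.07. Mapk14, the p38 kinase, had -1.45 ± 0.44 (limma adjusted p = 0.378). Tle1 had -1.72 ± 0.68 (limma adjusted p = 0.537) and -1.62 ± 0.52 on its other probe. Tle3 had -0.97 ± 0.50 (limma adjusted p = 0.669), while its other probe had 1.36 ± 0.77, so its probes disagree in sign.

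The Eya and Dach genes and the sine oculis-type homeobox genes, such as Six4, work with Pax genes in a shared network of the sense organs, where Eya proteins are transactivating phosphatases and Dach proteins corepressors. Of 11 listed, 9 were on the array and 8 tested, and none passed an adjusted p of 0.05. At an unadjusted p of 0.05, 0 were lower and 1 was higher, where 4.93% and 4.42% of named genes were, with a median of 0.29. Dach1 was above background on 1 wild-type array and on all 3 Pax6-/- arrays, with a change of 2.15 ± 0.55 (limma adjusted p = 0.310) and 0.74 ± 0.30 on its other probe. Six4 had -0.98 ± 0.50 (limma adjusted p = 0.660) with 3 wild-type arrays but 1 Pax6-/- array above background. Eya4 was dim in both genotypes, at 5.14 ± 0.23 (SD, n = 3) and 5.54 ± 0.53 (SD, n = 3). Eya1, on its brightest probe, was at 11.49 ± 0.08 (SD, n = 3) in the wild type and 11.27 ± 0.16 (SD, n = 3) in Pax6-/-. Its other tested probes had changes of -1.13 ± 0.82, -0.98 ± 1.12 and 0.35 ± 0.31, so they disagree in sign.

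**Figure D4:**
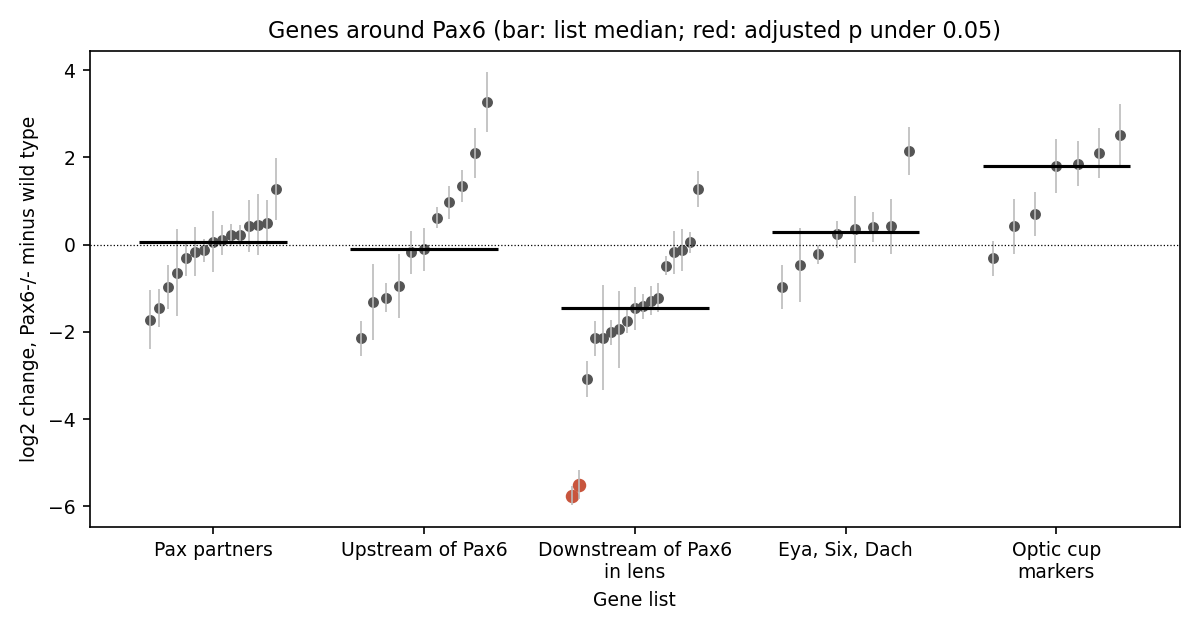
Change of each tested gene (log2, Pax6-/- minus wild type, brightest probe, bars are the SE of the limma fit) in 4 lists around Pax6 and in the optic cup markers, with a bar at the list median. Maf and Prox1, in red, are the 2 genes shown here that passed an adjusted p of 0.05. The downstream list has a median of -1.46 and the optic cup markers 1.81.

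The genes whose pattern over the 6 arrays was most like that of Pax6 were found by Pearson correlation with the mean of the 3 Pax6 probes, over 7275 named genes with an SD of at least 0.3. Arrays share the genotype difference, so any gene that differs between genotypes correlates, and the values are a description. The highest were the gamma-crystallin gene Cryge (r = 0.991), Lrrc28 (0.989), the phosphatase gene Ssu72 (0.988), the fatty acid elongase gene Elovl3 (0.987) and the secreted glycoprotein gene Dkk3 (0.985). Of these, Dkk3 and Ssu72 had changes close in size to that of Pax6, at -0.95 ± 0.26 and -0.78 ± 0.25. Cryge had -3.67 ± 0.53 but was above background on only 1 Pax6-/- array, so the size rests on background readings on the other two. Elovl3, at background on the 3 Pax6-/- arrays, was at least 7.18-fold lower. The lowest were the endothelial tight junction gene Cldn5 (r = -0.996), Bag4 (-0.989), the semaphorin gene Sema3c (-0.987), Wdr48 (-0.984) and Lmo1 (-0.979), and Lmo1, at background on the 3 wild-type arrays, was at least 3.17-fold higher in Pax6-/-. Elovl3 entered the ranking through its 3 wild-type arrays alone and Lmo1 through its 3 Pax6-/- arrays alone. None of the 10 genes passed an adjusted p of 0.05 in limma. In all, 114 genes had r above 0.9 and 81 below -0.9.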

How the data were processed

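Per the labels' protocols, 15 ng of total RNA from microdissected 10 micron sections of each embryo was amplified to cDNA and biotinylated for 1 bead array. Per the file headers, the non-normalised table as deposited gives a mean bead intensity per probe, its standard error on the signal scale, a count of beads and a detection p-value. GenomeStudio is named in the submitters' processing notes, its version and any genome build are not given in the sources used here. A second deposited table of the authors' processed intensity is linear, reaches below 0, and served as an alternative. Its scaling method is unknown (column medians 6.89 to 6.91).

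Probes were named by the platform annotation (29976 with 1 symbol, 10 with several, 16646 without). Of the symbols 29921 matched a RefSeq gene by identifier and 0 changed. With limma 3.58.1 in R 4.3.3, intensities were background-corrected by normexp using the detection p-values, given an offset of 16, log2-transformed and quantile-normalised. This shrinks changes of dim probes and hides a change in total RNA. Probes above background on 3 or more of the 6 arrays (detection p below 0.05) were kept (17751), and Pax6-/- was compared with wild type by lmFit and eBayes, without covariates, with Benjamini-Hochberg adjustment over all of them. The fit was tested on simulated data. Amplified RNA and 3 arrays per genotype limit the precision. Per array, 35.0% to 40.2% of the probes were above background and the median intensity was 55.2 to 64.3, with a median of 37 beads per probe. The sample titles gave the group and replicate number. Embryos are separate replicates per the series' design.

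Named are the members, 3 further paired-box genes and the 5 genes at each end of the likeness ranking. In each of the 4 lists around Pax6, the genes past the threshold and the 3 with the smallest p are named. Of the marker lists, genes past the threshold and a few of those with the smallest p are named. A few other genes are named for their background level, and Eya1, Dkk3, Ssu72, Six3, Meis1, Fgfr2, Prrx2 and Pitx3 were picked out after their values were seen. The members and lists were chosen with earlier results of these data known. Alternatives covered background, normalisation, filter, variance model, array weights, a replicate block and leaving out each array. Same-numbered arrays of the 2 genotypes did not deviate together (correlations -0.00981 to -0.00043), so the numbers were not taken as pairs.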

Additional observations from a re-analysis of the deposited data

How the results depend on the processing

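At an adjusted p of 0.05, limma called 4 of 17751 probes, all lower. The count was 7 with median scaling, 2 without background correction, 9 (6 lower and 3 higher) with the authors' processed values, 11 (10 and 1) with no filter, 8 (7 and 1) with a detection p under 0.01, and 12 (8 and 4) of 13805 with the brightest probe per gene, an alternative chosen after seeing the data. With the replicate number as a block it was 0 (1525 at an unadjusted p of 0.05), and without single arrays 0 to 1. The cause was not tested. The fits with an array left out also have fewer samples. The mean over the Pax6 probes was -1.10 with median scaling, and -0.87 to -0.71 without single arrays. With the replicate block the Pax6 probes had adjusted p of 0.551, 0.498 and 0.660, none past the threshold, as without it. Without Pax6-/- array 2 the difference in change between ILMN_2447200 and ILMN_2504978 turned from 0.17 to -0.050. It ran from -0.050 to 0.52 without single arrays. The 7 paralogue probes entered the fit only with no filter, and 0 were called there. For other genes named from the 4 lists and the likeness ranking, 348 of 359 values under the alternatives kept direction and side of the threshold. The other 11, all Maf or Prox1, kept the direction but no longer passed. Only Maf and Prox1 had passed at first, so for the rest keeping the side means staying short of the threshold. Refits in which a gene missed the filter are not among these values. With the replicate block Maf and Prox1 both had a limma adjusted p of 0.42. Signals near background limit the paralogues, and 3 arrays per genotype limit Pax6.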

Other observations

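The other 3 paired-box genes on the array, Pax1, Pax4 and Pax5, were read by 4 probes, and none was above background on any of the 6 arrays. Pax1, known from the sclerotome and pharyngeal pouches, had wild-type readings of 48.8 to 69.2 and Pax6-/- readings of 58.1 to 62.7 on ILMN_1228800, with a lowest detection p of 0.086, and 50.1 to 62.2 and 54.8 to 59.3 on ILMN_2740028. Pax4, known from pancreatic endocrine cells, read 47.7 to 55.1 and 53.9 to 54.6. Pax5, known from B cells and the midbrain-hindbrain boundary, read 51.5 to 58.5 and 56.0 to 61.7.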
